A study of Mus musculus with 2 samples.

Results

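Extracellular matrix genes other than type I collagen were followed as a set of 44 genes, taken by symbol from the 34184 genes listed in the count matrices, and all 44 symbols were found. The data were 2 mouse single-cell RNA libraries on the Chromium 3ʹ v3.1 chemistry, 1 from femur bone marrow and 1 from marrow of ectopic bone. The ectopic bone had been raised under the skin of C57BL6 or Cxcl12-GFP mice with the bone-inducing growth factor BMP-2 (bone morphogenetic protein 2, 8 µg) carried by β-TCP (β-tricalcium phosphate, 40 mg) and was taken 4 weeks after implantation. Each library mixed hematopoietic cells of wild-type C57BL6J mice with CAR cells (CXCL12-abundant reticular cells) of Cxcl12-GFP animals, in which GFP reports the Cxcl12 gene. The CAR cell fraction had passed collagenase, depletion of hematopoietic and endothelial cells, and sorting of live cells, so the mix sets how many stromal cells a library holds. How many mice were pooled, and their age and sex, are not given in the sources used here. With 1 library per tissue no difference was tested, and every interval below is an exact 95% interval that covers counting error only.

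The extracellular matrix of marrow is a soft mesh secreted largely by reticular stromal cells. Fibrillar collagens give it strength, collagen IV, laminins, nidogens and perlecan form the basement membranes around sinusoids, fibrillins and fibulins build elastic microfibrils, and proteoglycans and matricellular proteins bind growth factors and tune how cells attach. Blood cells add some matrix proteins of their own, among them fibronectin of monocytes and macrophages and thrombospondin of myeloid cells and platelets.

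Filters left 9755 cells of femur marrow and 6425 of ectopic marrow, with medians of 8377.5 and 8803.5 unique molecular identifiers (UMIs, counted transcript molecules) per deposited barcode, and 21 kept barcodes occurred in both libraries. CAR-like cells, the class named from CAR markers, numbered 217 in femur and 164 in ectopic marrow and had UMIs of all 14 markers of their list. The class held a large cluster (180 femur, 114 ectopic cells) and a cluster of few UMIs per cell (37 and 50 cells, median 1171 and 1732.5 UMIs), which added 2.43% and 5.55% of the UMIs of the class. Markers of other stromal types were uneven in the CAR-like sums. Kdr, Flt1 and Tie1 of endothelium, Acan of cartilage, Dmp1 of osteocytes and Kcnj8 of mural cells had no UMI in either library, and the osteoblast gene Bglap had 1 UMI in each. The summed osteoblast list differed, with 6039 counts per 1000000 UMIs (CPM) in femur cells against 812 in ectopic cells. Ibsp gave 5639 and 470 CPM of these sums and Col1a1 123 and 286. Alpl (196 and 18 UMIs) and Phex (340 and 44) were also lower in ectopic cells, while Sp7 had 40 and 35. The mural list (7 and 6 of 9 markers seen) summed to 491 and 194 CPM, mostly from Notch3 (700 and 222 UMIs) and Abcc9 (192 and 35). The Schwann list (5 and 4 of 8) summed to 152 and 32.6 CPM, mostly from S100b (292 and 50 UMIs), and the endothelial list (6 and 5 of 10) to 77.2 and 91.8 CPM, mostly from Pecam1 (144 and 158). The chondrocyte list (5 and 3 of 9) summed to 54.7 and 63.6 CPM, mostly from Sox9 (56 and 51 UMIs), Comp (29 and 55) and Matn3 (22 and 9). The part of these lists in the results below was not tested.

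The 44 genes made up 1.37% (1.36 to 1.39) of the UMIs of femur CAR-like cells and 1.63% (1.61 to 1.65) of those of ectopic CAR-like cells. A gene was called measured from 50 UMIs over both libraries and higher or lower in ectopic cells from a ratio of 1.5-fold, which is a rule of size. Of the 44 genes 35 were measured, of which 9 were higher and 7 lower in ectopic CAR-like cells, beside 10.8% of all 8681 measured genes higher and 10.4% lower. The median log2 ratio was -0.04 over the 35 genes and 0.02 over all measured genes. The genes thus differed in both directions, with a median near that of all genes. Collagens III and VIII, the alpha 2 chain of collagen V (Col5a2), osteonectin, the thrombospondins and fibronectin were on the higher side, and fibrillin 1, fibulins, Prelp, lumican, matrix Gla protein and tenascin C on the lower side, while collagens IV and VI and most basement membrane genes lay within 1.5-fold.

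**Figure D1:**
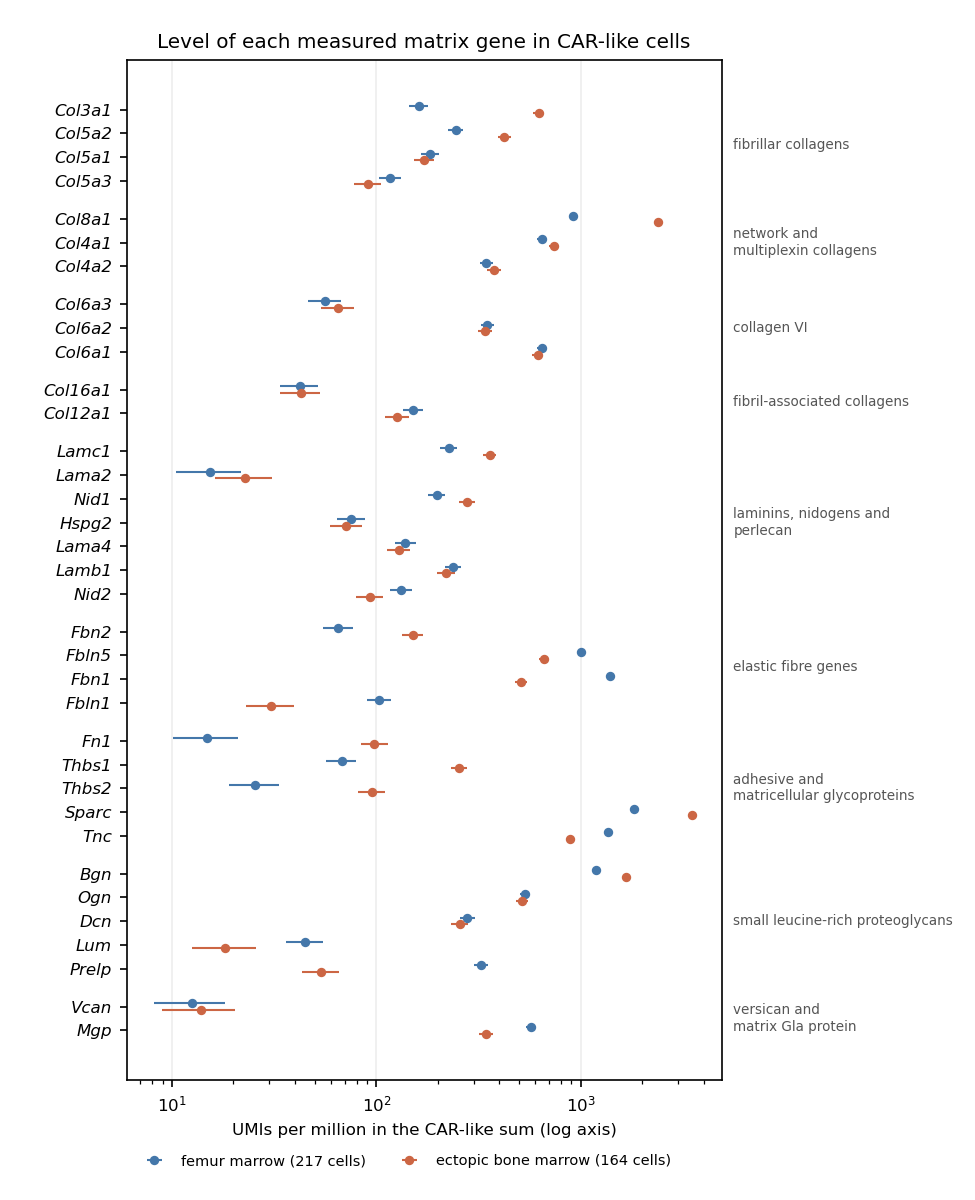
Level of the 35 measured matrix genes in CAR-like cells, in CPM of the summed class (log axis), for femur (217 cells) and ectopic (164 cells) marrow. Points are class sums of 1 library each and bars exact 95% Poisson intervals. Col3a1, Col8a1 and Sparc lie to the right in ectopic cells, and Fbn1 and Prelp to the left.

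**Figure D2:**
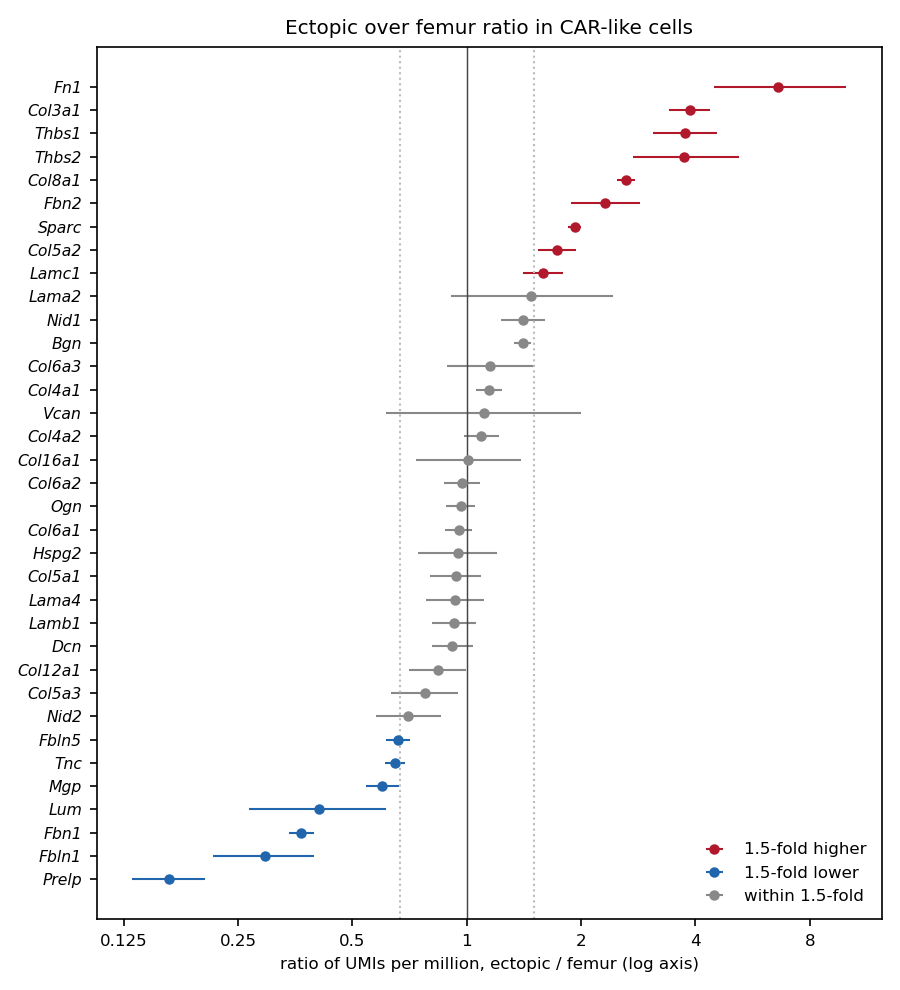
Ratio of ectopic over femur level for the same 35 genes on a log axis, with exact 95% intervals of counting error. Dotted lines mark 1.5-fold either way. There are 9 genes to the right of the upper line and 7 to the left of the lower one, and Fn1 and Prelp are at the ends.

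Among fibrillar collagens, Col3a1, the reticular fibre collagen, had 161 CPM (336 UMIs) in femur CAR-like cells and 622 CPM (1125 UMIs) in ectopic ones, a ratio of 3.86 (3.41 to 4.37). More cells carried it as well. Each cell with at least 3000 UMIs was thinned to 3000 UMIs, and cells under that depth were left out. A Col3a1 UMI was then seen in 50 of 176 femur cells (28.4%, 21.9 to 35.7) and 80 of 122 ectopic cells (65.6%, 56.4 to 73.9). Unthinned, over all 217 and 164 CAR-like cells, 39.6% and 82.3% had one. In B lineage cells, which should lack the gene, the thinned shares were 0.200% and 0.191%, at median depths of 5958 and 6437 UMIs against 9878 and 10791 in CAR-like cells. The summed fibroblast list was at 1711 and 2567 CPM, mostly from Col1a2, with 9 and 11 of its 12 markers seen. Of its markers, Dpt had 0 and 3 UMIs and Cd34 0 in both, while Mfap5 had 0 and 63 and Gsn 183 and 292 (87.8 and 162 CPM). Pdgfra went the other way, with 932 and 718 UMIs (447 and 397 CPM), as did Dpp4 with 14 and 8. The part of this list in the Col3a1 ratio was not tested. Of the 3 chains of collagen V, which starts fibrils and sets their width, 1 was higher. Col5a2 had 245 femur and 423 ectopic CPM (ratio 1.73, 1.54 to 1.94), Col5a1 at 183 and 171 CPM (0.935, 0.802 to 1.09) and Col5a3 at 117 and 90.7 CPM (0.775, 0.632 to 0.948). In the same cells Col1a1 of type I collagen had a ratio of 2.33 and Col1a2 of 1.61.

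Col8a1, a short-chain collagen that forms hexagonal networks, was the network collagen that differed. Femur cells had 917 CPM (1912 UMIs) and ectopic cells 2402 CPM (4343 UMIs), a ratio of 2.62 (2.48 to 2.76). The gene was split among femur cells, where 114 of 217 had a UMI, and present in 158 of 164 ectopic cells. The thinned shares kept that contrast, at 45.5% (37.9 to 53.1) and 92.6% (86.5 to 96.6). Col4a1 and Col4a2, whose products join in the main basement membrane network, stayed together. Col4a1 was at 645 and 738 CPM in femur and ectopic cells (ratio 1.14, 1.06 to 1.23) and Col4a2 at 346 and 377 CPM (1.09, 0.981 to 1.21). The pair is divergent, and RefSeq places its starts 21 bases apart on opposite strands of chromosome 8 (GRCm38.p6).

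The promoters of Col3a1 and Col8a1, the collagens of the set with the highest ratios, and of Prelp, the measured gene with the lowest, are shown because these genes had opposite ratios in the same cells. RefSeq promoters (GRCm38.p6) matched 30 of the 44 genes. Windows of 250 bases before each start were searched on both strands for the letters of 3 motifs. These were the TATA box, spelled TATAAA, the core site of RUNX factors, spelled TGTGGT, and the site of Sp1-type factors known as the GC box, spelled GGGCGG. Capitals mark matches on either strand, and no match overlaps another motif. Bases inside annotated exons were cut off. Col3a1 is chr1:45311288-45311537 (+ strand), Col8a1 chr16:57754738-57754987 (- strand) and Prelp chr1:133921415-133921651 (- strand, 13 bases short of the start).
Col3a1: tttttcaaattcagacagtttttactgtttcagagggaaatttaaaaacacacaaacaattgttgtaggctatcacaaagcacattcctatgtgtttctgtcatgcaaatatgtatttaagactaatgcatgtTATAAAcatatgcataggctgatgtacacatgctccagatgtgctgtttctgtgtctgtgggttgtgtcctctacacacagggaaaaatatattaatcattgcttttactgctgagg
Col8a1: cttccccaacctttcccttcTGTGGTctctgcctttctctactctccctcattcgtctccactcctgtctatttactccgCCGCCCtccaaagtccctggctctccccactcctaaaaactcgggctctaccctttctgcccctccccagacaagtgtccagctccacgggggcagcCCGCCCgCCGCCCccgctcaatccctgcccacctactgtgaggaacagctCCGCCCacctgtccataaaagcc
Prelp: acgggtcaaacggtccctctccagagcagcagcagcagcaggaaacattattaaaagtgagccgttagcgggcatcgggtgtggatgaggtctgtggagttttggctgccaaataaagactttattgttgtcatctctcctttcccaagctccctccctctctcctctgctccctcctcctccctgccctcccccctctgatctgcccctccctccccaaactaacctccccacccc
Col3a1 held a TATA box, Col8a1 held a RUNX core with 4 GC boxes, and Prelp held none of these letters. Over all 32851 windows 12.4% had the TATA box, 14.05% the RUNX core and 32.7% the GC box. These shares count single windows, while a member was counted once if any of its windows matched. The shares and the member counts are therefore not directly comparable. Of the 30 members 5 had the TATA box (Col3a1, Ogn, Postn, Thbs2 and Tnc), 3 the RUNX core (Col18a1, Col8a1 and Ogn) and 18 the GC box. A match describes letters in a window and not a site in use.

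Collagen VI, the beaded microfibril collagen around cells, was level in both tissues. Col6a1 was at 647 and 616 CPM in femur and ectopic cells (ratio 0.952, 0.879 to 1.03), Col6a2 at 350 and 339 CPM (0.969, 0.869 to 1.08) and Col6a3 at 56.1 and 64.7 CPM (1.15, 0.885 to 1.503). Of the collagens that decorate fibrils, Col12a1 was at 151 and 127 CPM (0.838, 0.704 to 0.997) and Col16a1 at 42.2 and 42.6 CPM (1.01, 0.733 to 1.39). These intervals do not reach 1.5-fold higher or lower except for Col6a3, whose upper bound is 1.503.

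Of 7 basement membrane genes beside collagen IV, 6 lay within 1.5-fold. Lamc1, the gamma chain shared by most laminins, had 226 femur and 358 ectopic CPM (ratio 1.59, 1.41 to 1.79), whereas its beta partner Lamb1 was at 238 and 220 CPM (0.925, 0.808 to 1.06). The alpha chains were Lama4 of vessel laminins, at 139 and 129 CPM (0.9295, 0.779 to 1.11), and Lama2, at 32 and 41 UMIs (1.48, 0.908 to 2.42). Nidogens bridge laminin and collagen IV, and their 2 genes were on opposite sides of 1, Nid1 at 198 and 278 CPM (1.41, 1.23 to 1.61) and Nid2 at 132 and 92.9 CPM (0.702, 0.576 to 0.853). Hspg2, the perlecan gene, was at 75.3 and 71.4 CPM (0.947, 0.745 to 1.20). The call for Lamc1 ended, at a log2 ratio of 0.51, in cells with an EGFP UMI alone and, at 0.55, without the 5 cells of each library richest in Lamc1 itself.

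Among elastic fibre genes the 2 fibrillins, the large glycoproteins of microfibrils, had opposite ratios. Fbn1 had 1392 CPM (2902 UMIs) in femur cells against 511 CPM (924 UMIs) in ectopic cells, a ratio of 0.367 (0.341 to 0.395), and Fbn2, best known from developing tissue, was at 65.3 CPM (136 UMIs) and 151 CPM (273 UMIs), a ratio of 2.31 (1.88 to 2.86). The thinned share of cells with an Fbn1 UMI was 94.9% (90.5 to 97.6) in the femur and 76.2% (67.7 to 83.5) in ectopic cells, and for Fbn2 it was 17.6% (12.3 to 24.1) and 27.0% (19.4 to 35.8). The lower Fbn1 was thus seen in level and in cells, while the intervals of the Fbn2 shares overlap. Fbln1, a fibulin of microfibrils and basement membranes, was at 104 and 30.4 CPM (216 and 55 UMIs, ratio 0.294, 0.214 to 0.396). Fbln5, which guides elastin onto microfibrils, was at 999 and 659 CPM (0.660, 0.614 to 0.709), so close to the 1.5-fold line that 4 of 18 alternative settings put it inside.

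Adhesive and matricellular glycoproteins, which signal to cells more than they bear load, held 4 of the 9 higher genes. Sparc, osteonectin, a collagen-binding protein of bone, had 1829 femur and 3516 ectopic CPM (3811 and 6355 UMIs, ratio 1.92, 1.847 to 2.002). Nearly all cells carried it, 198 of 217 and 159 of 164. Thbs2, a thrombospondin of stromal cells, was at 25.4 CPM (53 UMIs) and 95.1 CPM (172 UMIs), a ratio of 3.74 (2.74 to 5.19), and was seen in 40 and 81 cells. Thbs1, its close relative, was at 67.7 CPM (141 UMIs) and 254 CPM (459 UMIs), a ratio of 3.75 (3.10 to 4.57). Thinned shares of cells with Thbs1 were 13.1% (8.47 to 18.96) and 31.97% (23.8 to 41.0), against 0.922% and 1.05% in B lineage cells. Neutrophil-like cells are rich in Thbs1, and the summed neutrophil list in CAR-like cells had 2987 femur and 2225 ectopic CPM, with all 10 markers seen in both. Its part in the Thbs1 ratio was not tested. Tnc, tenascin C, an anti-adhesive protein of marrow stroma, went the other way, at 1367 and 887 CPM (0.648, 0.610 to 0.690). The thinned shares of cells with Tnc were alike, 67.6% (60.2 to 74.5) and 65.6% (56.4 to 73.9), and its call was lost in 6 of 18 alternative settings, where the log2 ratio was between -0.56 and -0.42.

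Fn1, fibronectin, had the highest ratio of the 35 genes, from few UMIs. Femur CAR-like cells had 14.9 CPM (31 UMIs in 17 cells) and ectopic ones 97.9 CPM (177 UMIs in 53 cells), a ratio of 6.58 (4.48 to 9.98). Its 5 richest cells held 61.3% of the femur UMIs and 45.8% of the ectopic ones. The thinned shares were 5.11% (2.36 to 9.49) and 17.2% (10.98 to 25.1), against 1.96% and 1.67% in B lineage cells of the same libraries. Monocyte-like cells carried Fn1 at a far higher level, so monocyte markers were read in the same sums. In the femur 9 of 10 and in the ectopic sum 10 of 10 had a UMI, and together they came to 209 and 183 CPM. Single markers went both ways, Csf1r at 124 and 50.9 CPM, Klf4 at 50.9 and 76.3 and Ly6c2 at 10.6 and 27.1. Dendritic-like cells had the second highest Fn1 level, at 280 and 239 CPM. The dendritic list in the CAR-like sums (4 and 8 of 9 markers seen) was at 78.7 and 229 CPM. The part of the monocyte and dendritic lists in the Fn1 ratio was not tested. In CAR-like cells with no Ptprc UMI (Ptprc is the CD45 gene of blood cells) the log2 ratio was 2.14, beside 2.72 in all CAR-like cells, and it was 0.71 with no doublet removal.

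The small leucine-rich proteoglycans, which coat collagen fibrils, split into steady and lower genes. Prelp, a proteoglycan that links basement membrane to collagen, had 326 CPM (679 UMIs) in femur cells against 53.7 CPM (97 UMIs) in ectopic cells, 6.07-fold lower (ratio 0.165, 0.132 to 0.204), the lowest ratio of the 35. It was seen in 145 of 217 femur cells and 43 of 164 ectopic cells, and after thinning in 52.8% (45.2 to 60.4) and 12.3% (7.05 to 19.5). Lum, lumican, was at 44.6 and 18.3 CPM, from 93 and 33 UMIs (0.409, 0.266 to 0.615), and 5 cells held 72.7% of the ectopic UMIs. Dcn, decorin, was at 279 and 256 CPM (0.915, 0.808 to 1.04) and Ogn, osteoglycin, at 535 and 516 CPM (0.963, 0.882 to 1.05). Bgn, biglycan, a proteoglycan of bone, was at 1188 and 1666 CPM (1.40, 1.33 to 1.48), short of 1.5-fold.

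Mgp, matrix Gla protein, an inhibitor of mineral deposition, was at 574 and 344 CPM in femur and ectopic cells (1196 and 622 UMIs, ratio 0.5996, 0.543 to 0.661). It was seen in 124 of 217 and 59 of 164 cells. Its log2 ratio of -0.74 fell short of the call in 3 of 18 alternatives, at -0.46 with every cell weighted equally, -0.33 with no doublet removal and -0.28 in cells with at least 5 Cxcl12 UMIs and no Ptprc UMI. Vcan, the large proteoglycan versican, had 26 and 25 UMIs in CAR-like cells (1.11, 0.614 to 1.998) and its highest level in monocyte-like cells.

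The 9 members under 50 UMIs in CAR-like cells were Col18a1 (26 femur and 23 ectopic UMIs), Postn (11 and 7), Eln (12 and 5), Col15a1 (1 and 10), Col14a1 (4 and 5), Sparcl1 (4 and 1), Fmod (0 and 4), Col4a5 (0 and 3) and Fbln2 (0 and 0). Periostin, elastin and fibromodulin, typical of ligament, artery and tendon, were thus at or near the limit of detection in CAR-like cells of both tissues. The 10 ectopic UMIs of Col15a1 came from 4 cells.

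Per cell, the 44 genes took a median of 1.33% of UMIs in femur CAR-like cells (range 0.157% to 4.44%) and 1.56% in ectopic ones (0.474% to 4.67%). The ranges overlapped almost fully. The 176 femur and 122 ectopic cells with at least 3000 UMIs had a median of 1.27% and 1.46% unthinned. Thinned to 3000 UMIs, the same cells had a median of 1.27% and 1.40%, and a median of 14 and 15 of the 44 genes with a UMI. The cluster of few UMIs carried a larger matrix share, 2.31% (femur) and 2.43% (ectopic), against 1.35% and 1.58% in the large cluster, and its cells were the 5 richest of each library. Its sums also had little of the nuclear RNA Malat1, at 454 and 707 CPM against 31356 and 34980 in the large cluster, and more of the neutrophil gene S100a8, at 2509 and 7323 CPM against 1083 and 414. Their part in the larger share was not tested. The 5 richest cells had 15 to 36 Cxcl12 UMIs (femur) and 22 to 73 (ectopic), and 1 of the 10 had a Ptprc UMI. In the large cluster alone Col3a1 had a ratio of 3.59, Col8a1 of 2.67, Fbn1 of 0.375 and Prelp of 0.162. Cells with Ibsp, a bone matrix gene, made up 166 of 176 thinned femur cells and 27 of 122 ectopic ones. Prelp was at 353 CPM in the former (176 UMIs) and 24.7 in the latter (2 UMIs). Without an Ibsp UMI it was at 133 CPM in 10 femur cells (4 UMIs) and 52.6 CPM in 95 ectopic cells (15 UMIs). Tnc was at 1157 and 1790 CPM in femur and ectopic cells with Ibsp, and at 2167 and 649 CPM in those without.

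**Figure D3:**
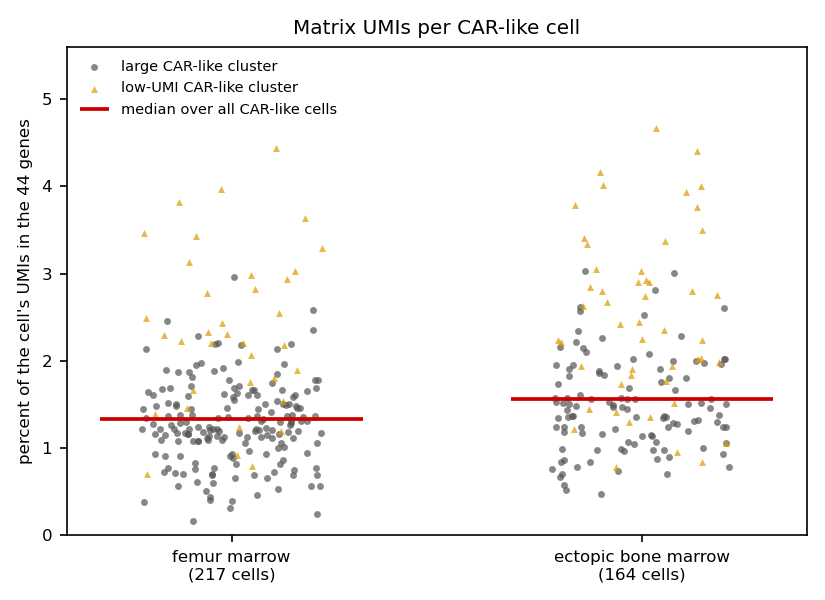
Percent of each CAR-like cell's UMIs that fell on the 44 matrix genes, 1 point per cell, for 217 femur and 164 ectopic cells. Triangles are cells of the cluster of few UMIs and red lines the medians, 1.33% and 1.56%. The highest points of both libraries are triangles.

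The UMIs of the set as a whole were spread over cells. The 5 cells with most matrix UMIs held 7.28% of them (femur) and 11.3% (ectopic), close to the 5.94% and 9.88% of all UMIs that the 5 cells with most UMIs held. Broadly carried genes such as Sparc (7.61% and 11.8% in its own 5 richest cells), Bgn (8.89% and 13.3%) and Col6a1 (8.83% and 14.02%) followed this spread. A few genes rested on few cells. The 5 richest cells held 35.5% and 72.7% of Lum, 16.7% and 49.1% of Fbln1, 22.9% and 42.3% of Mgp, 35.5% and 37.5% of Thbs1 and 59.4% and 46.3% of Lama2. For each gene without its own 5 richest cells per library, the log2 ratio of Lum went from -1.29 to -2.53, that of Fbln1 from -1.77 to -2.48 and that of Mgp from -0.74 to -1.16. Col3a1, Col8a1 and Thbs2 showed the opposite spread, more evenly carried in ectopic cells, where the 5 richest held 16.8%, 18.9% and 15.7%, than in femur cells, where they held 25.9%, 25.8% and 26.4%.

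**Figure D4:**
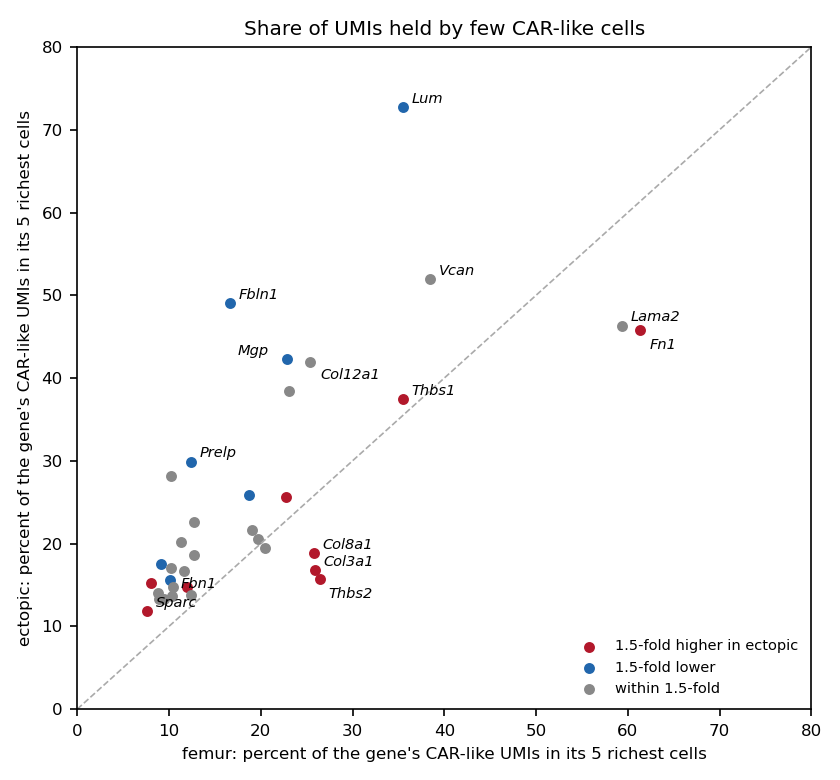
Percent of each gene's CAR-like UMIs held by its 5 richest cells, femur on the x axis and ectopic on the y axis, for the 35 measured genes. The dashed line marks equal shares. Lum and Fbln1 lie far above it, and Col3a1, Col8a1 and Thbs2 below it.

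The removal of likely doublets moved several of these values. That step left out 75 femur and 36 ectopic cells that otherwise fell in the CAR-like class, of which 46 and 12 had a Ptprc UMI. Among them were 2 femur and 5 ectopic cells with at least 300 Col1a1 UMIs, and together these had 0 and 5 Cxcl12 UMIs and 1109 and 464 UMIs of the osteoblast gene Bglap. The 5 ectopic cells alone held 73.6% of Lum, 60.6% of Dcn, 47.8% of Sparc and 95.2% of Col1a1 UMIs of the enlarged class. With all these cells kept, 15 genes were higher and 3 lower, beside 9.42% and 13.1% of all genes, the median log2 ratio was 0.33, and Lum turned to 1.23 and Dcn to 1.20. Cells were also chosen by at least 5 Cxcl12 UMIs and no Ptprc UMI, with no doublet removal, a selection made after seeing the data. In these 11 genes were higher and 6 lower, beside 11.1% and 10.3% of all genes, and Lum was at -0.53. Col3a1, Col5a2, Col8a1, Fbn2, Fn1, Sparc, Thbs1 and Thbs2 were higher and Fbln1, Fbn1 and Prelp lower in each of the 18 alternatives at 1.5-fold. Not all of the 18 could move a call. A minimum of 20 UMIs leaves each ratio as it was. Leiden resolutions 2 and 0.5 and each library alone gave the same medians and shares as the main setting, all genes included. These alternatives are no separate check of a call.

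In the libraries as a whole, CAR-like cells held 41.2% (40.9 to 41.6) of the matrix UMIs of the femur library and 48.4% (47.985 to 48.8) of those of the ectopic one, although they were few. Monocyte-like cells held 28.9% (28.6 to 29.3) and 28.9% (28.6 to 29.3), and neutrophil-like cells 22.3% (22.01 to 22.6) and 16.4% (16.1 to 16.7). By level, CAR-like cells ranked first for 31 of the 34 genes with at least 50 UMIs in the femur library and for 31 of 35 in the ectopic library. Fn1, Vcan and Thbs1 were the 3 genes with another class on top in both.

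**Figure D5:**
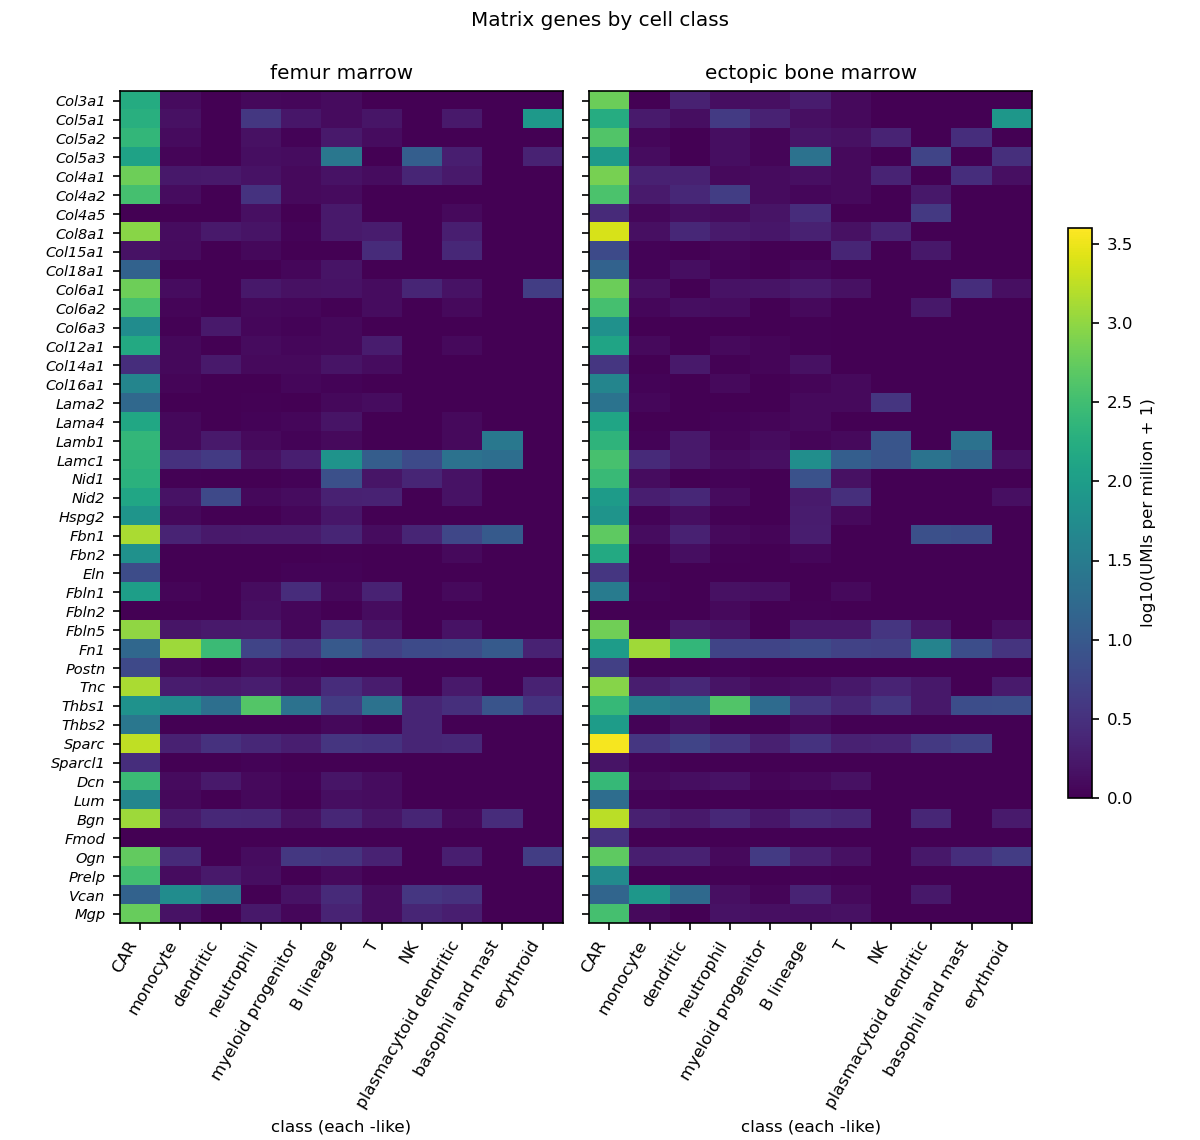
Level of all 44 matrix genes in 11 classes of femur (left) and ectopic (right) marrow, as log10 of CPM plus 1, by color. The CAR-like column is bright for most genes. Fn1 and Vcan stand out in monocyte-like cells, Thbs1 in neutrophil-like cells, Lamc1 and Col5a3 in B lineage-like cells and Col5a1 in erythroid-like cells, in both libraries.

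Monocyte-like cells (973 femur, 636 ectopic) had 5 measured matrix genes, of which 1 was higher and 0 lower, beside 2.09% and 4.40% of all 11587 measured genes. Fn1 in these cells had 1163 femur and 1228 ectopic CPM (18177 and 15930 UMIs, ratio 1.06, 1.03 to 1.08). They held 94.8% (94.4 to 95.1) and 93.1% (92.7 to 93.4) of all Fn1 UMIs, so nearly all fibronectin transcripts counted in either tissue lay in this class. It was broadly carried, in 65.8% and 72.6% of thinned cells and with 3.85% and 3.56% of UMIs in the 5 richest cells. Vcan was at 54.6 and 78.9 CPM (1.45, 1.32 to 1.59), with 87.1% and 90.1% of its UMIs in the class. Thbs1 was at 52.3 and 35.2 CPM (0.673, 0.599 to 0.756), just inside the 1.5-fold line, and Lamc1 had 35 and 22 UMIs (0.757, 0.423 to 1.33). The higher gene was Sparc, from 18 and 35 UMIs (1.15 and 2.70 CPM), a ratio of 2.34 (1.29 to 4.39), beside 2.57 and 2.36 CPM in B lineage cells (0.919, 0.599 to 1.40). The monocyte level was thus near or below that of a class that should lack the gene.

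Within monocyte-like cells, 3 clusters carried the genes unequally. The 44 genes had been kept out of the genes used for clustering. Cells of the cluster led by Ccr2 and S100a4 (490 femur, 389 ectopic) had Fn1 at 1823 and 1671 CPM (0.917, 0.892 to 0.942), Vcan at 122 and 132 CPM (1.08, 0.977 to 1.20) and Thbs1 at 114 and 61.3 CPM (0.540, 0.475 to 0.614). The cluster led by F13a1 and Nrg1 (336 and 185 cells) had Fn1 at 855 and 929 CPM (1.09, 1.05 to 1.12) and Vcan at 14.8 and 36.2 CPM (2.44, 1.96 to 3.06). The cluster led by Ace and Adgre4 (147 and 62 cells) was almost without Fn1, at 17.5 and 12.5 CPM. Thbs1 was at 16.9 and 11.1 CPM in the F13a1-led cluster (0.655, 0.486 to 0.877) and had 1 and 18 UMIs in the Ace-led one (30.6, 4.84 to 1277). Those 18 UMIs lay in 8.06% of the 62 ectopic cells, so the Ace-led ratio rested on few cells. The Vcan ratio thus differed between the Ccr2-led and F13a1-led clusters. Thbs1 was lower in ectopic marrow in both of these, with intervals that overlap.

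Most Thbs1 UMIs of either library lay in neutrophil-like cells (3635 femur, 2067 ectopic), which held 89.7% (89.2 to 90.2) and 87.9% (87.3 to 88.5). Their level was 434 and 412 CPM (0.948, 0.924 to 0.973), beside 67.7 and 254 CPM in the 217 and 164 CAR-like cells. The shares thus also depend on how many cells of each class the mix holds. Of 6 measured matrix genes in neutrophil-like cells 1 was higher and 0 lower, beside 2.71% and 3.59% of all genes. The higher one was Sparc at 1.51 and 2.58 CPM, near or below the 2.57 and 2.36 CPM of B lineage cells. The near equality of Thbs1 over neutrophil-like cells did not hold in each cluster. It was at 580 and 685 CPM in the cluster led by Ltf and Ly6g (1.18, 1.12 to 1.25), at 732 and 797 CPM in one led by Mmp8 and Thbs1 itself (1.09, 1.04 to 1.14) and at 213 and 223 CPM in one led by Camp and Orm1 (1.05, 0.981 to 1.12). It was lower by 1.5-fold or more in 2 clusters. The cluster led by Retnlg and Cxcl2 had 422 and 168 CPM (0.397, 0.355 to 0.443) and the one led by Il1b 233 and 143 CPM (0.615, 0.538 to 0.702). The cluster led by Il36g and Retnlg, at 548 and 417 CPM (0.761, 0.713 to 0.811), lay within 1.5-fold.

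B lineage-like cells (2625 femur, 2161 ectopic) had 9 measured matrix genes, with 0 higher and 2 lower, beside 5.31% and 8.08% of all genes. Lamc1 had most of its UMIs here, 68.2% (66.2 to 70.1) and 56.9% (54.6 to 59.2), at 69.5 and 59.3 CPM (0.853, 0.787 to 0.923), and was carried in every cluster of the class at 39.0 to 107 CPM. Col5a3 had 67.3% and 66.4% of its UMIs here, at 26.0 and 21.5 CPM (0.829, 0.726 to 0.947), and lay mainly in 1 cluster. In the cluster led by Rag1 and Reln it was at 98.1 and 105 CPM, and in the cluster led by Ighd and Fcer2a it had 1 and 0 UMIs. Nid1 had the mirror pattern, with 131 of 141 femur and 121 of 125 ectopic UMIs of the class in the Ighd-led cluster, at 28.3 and 17.1 CPM (0.604, 0.467 to 0.779), and 4 and 2 UMIs in the Rag1-led one. These opposite positions were the same in both tissues. The 2 lower genes were Fn1 (9.04 and 5.59 CPM) and Ogn (2.43 and 1.09 CPM). Both levels were low beside 1163 and 1228 CPM of Fn1 in monocyte-like cells and 535 and 516 CPM of Ogn in CAR-like cells.

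Col5a1 was also present in erythroid-like cells, at 85.9 CPM (73 UMIs, 13 of 22 cells) in femur and 79.05 CPM (188 UMIs, 34 of 46 cells) in ectopic marrow (0.921, 0.699 to 1.22), against 0.275 and 0.403 CPM in B lineage cells. Other class levels rested on few cells, and 2 examples are named after their values were seen. T-like cells had 74 Thbs1 UMIs in femur and 6 in ectopic marrow, and 5 femur cells held 95.9% of them. Plasmacytoid dendritic-like cells had 23 and 54 Fn1 UMIs, and the 54 came from 3 cells.

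Genes that make, cut and bind the matrix were read in CAR-like cells from 5 further lists, whose counts stand beside the 10.8% higher and 10.4% lower of all genes measured there. Of 28 genes for collagen folding and crosslinking 23 were measured, with 3 higher and 2 lower, near those shares, and a median log2 ratio of 0.18. The higher ones included Serpinh1, the collagen chaperone, at 813 and 1325 CPM (1.63, 1.53 to 1.74), and Pcolce, which enhances procollagen cleavage, at 225 and 417 CPM (1.86, 1.65 to 2.09), and the lower ones were the procollagen proteases Adamts14 (0.514) and Adamts3 (0.544). Of 29 proteases and inhibitors 25 were measured, with 6 higher and 6 lower and a median of 0.12. The higher ones included Adamts12 (2.93, 2.32 to 3.74). The lowest ratios were those of Mmp13, the collagenase of bone (0.222, 0.188 to 0.260), and Timp4 (0.309, 0.143 to 0.613). The 5 richest cells held 37.1% of the femur and 90.7% of the ectopic Mmp13 UMIs, and 26.8% and 45.5% of those of Timp4. The Mmp13 ratio thus rested on few cells, which its interval does not cover.

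Of 26 matrix receptors 19 were measured, with 2 higher, near the share of all genes, and 3 lower and a median of -0.15. Itgb3 had 14 femur and 47 ectopic UMIs (3.87, 2.09 to 7.61) and Itga2 23 and 30 (1.504, 0.845 to 2.71), while Itga8, an integrin subunit that binds nephronectin and fibronectin, had 114 and 9 (0.0910, 0.0406 to 0.179) and Itga9, which binds tenascin C, 200 and 67 (0.386, 0.288 to 0.512). Of 46 other glycoproteins and proteoglycans 27 were measured, with 7 higher and 7 lower and a median of 0.23. Mfap5, a microfibril protein, had no femur UMI against 63 in ectopic cells, at least 24.2-fold higher with the femur sum set to 3 UMIs, and Smoc2 8 and 74 (10.7, 5.14 to 25.6). Lama3, a laminin chain, had 121 and 4 (0.0381, 0.0102 to 0.100) and Ccn2, connective tissue growth factor, 364 and 54 (0.171, 0.126 to 0.228). The 5 richest cells held 52.4% of the ectopic Mfap5 UMIs. They held 62.5% (femur) and 32.4% (ectopic) of Smoc2 UMIs and 27.5% and 55.6% of Ccn2 UMIs. Of the collagen I and cartilage collagen list 3 of 9 were measured, and Col11a1 was lower (0.339, 0.260 to 0.438) beside the higher Col1a1 and Col1a2.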

How the data were processed

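Both matrices are unnormalized UMI counts as the authors deposited them. Cell Ranger wrote them in version 7.0.1, per the file headers, and the submitters' processing notes name GRCm39 as the build. The annotation, and whether intronic reads were counted, are not given in the sources used here. The femur library held 11148 barcodes and 123009924 UMIs and the ectopic library 7214 and 86018367, with 26 barcodes shared. Cells with at least 500 UMIs, 300 genes and at most 10% mitochondrial UMIs were kept. Likely doublets were scored against simulated pairs, as Scrublet does, and the top 0.8% per 1000 cells were left out (910 of the femur and 369 of the ectopic library).

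Clustering was joint, in scanpy 1.11.5 with igraph 0.11.9 (counts scaled to 10000 per cell and logged, 2000 variable genes without any matrix gene, 30 principal components, 15 neighbours, Leiden resolution 1). Clusters were named from 25 marker lists by a rule set after the clusters were seen, from the markers among the 10 genes of highest fold, or else the highest mean marker fold. With fewer than 3 markers above other cells they stayed unnamed. So did clusters with no marker among the 10 and either low UMIs or under 50% of the list above other cells. This left 749 femur and 339 ectopic cells without a class. Of these, 574 and 228 were in a cluster led by Il1b and Ptgs2. Class names mean cells like that type. UMIs were summed per class and library and divided by the sum's UMIs (CPM). The ectopic value is divided by the femur value, with an exact conditional binomial interval for the ratio. Levels carry exact Poisson intervals and shares exact binomial (Clopper-Pearson) ones. A library at 0 UMIs was set to 3.

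The 44 members and all lists were chosen with earlier results of these data known. All members are named in CAR-like cells. In other classes a member is named from 50 UMIs where the class holds at least 20% of its UMIs or the highest level, with exceptions stated, and of the other lists the 2 highest and 2 lowest ratios are named. The alternatives were a minimum of 1500 UMIs, at most 5% mitochondrial UMIs, no doublet removal, Leiden resolutions 2 and 0.5, each library alone, matrix genes allowed among the variable genes, edgeR 4.0.16 TMM or median-of-ratios scaling, mean per-cell CPM, cells thinned to 3000 UMIs, cells with no Ptprc UMI, with an EGFP UMI or without the cluster of few UMIs, sums without the 5 richest cells, a minimum of 20 UMIs and a fold of 2. The ratio and thinning steps were tested on simulated data. Python 3.11.15, numpy 2.4.6, scipy 1.17.1 and pandas 2.3.3 were used.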

Additional observations from a re-analysis of the deposited data

How the results depend on the processing

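In CAR-like cells the counts of 9 higher and 7 lower genes and the median log2 ratio of -0.04 depended most on doublet removal. Without it 15 genes were higher and 3 lower, beside 9.42% and 13.1% of all genes. The median was then 0.33, and lumican turned from -1.29 to 1.23. Means of per-cell CPM left 4 genes lower, as did a fold of 2. Cells with at least 5 Cxcl12 UMIs and no Ptprc UMI, an alternative added after seeing the data, had a median of 0.12. Leiden resolutions 2 and 0.5 and clustering of each library alone gave the same counts of CAR-like calls and the same medians, all genes included. They are no separate check of these calls. In monocyte-like cells, where 1 gene was higher and 0 lower, the lower count was 1 with a minimum of 1500 UMIs, at most 5% mitochondrial UMIs, no doublet removal, Leiden resolution 2 or 0.5, each library alone, matrix genes among the variable genes, or without the 5 richest cells of the class or of each gene. In those settings 2.85% to 6.58% of all genes were lower. Thinned cells gave 2 higher and 0 lower, beside 5.72% and 10.2% of all genes. A minimum of 20 UMIs gave 3 higher and 2 lower, beside 3.80% and 7.20%. The median share of CAR-like cells with a UMI of a member, 27.8% (femur) and 25.8% (ectopic) after thinning, was 52.3% and 47.3% without thinning, which leaves the depth of each cell in the share. The cause was not tested in the other cases. Among the 16 called genes in CAR-like cells, lumican was the one whose log2 ratio changed sign in any alternative. No paired analysis was possible because each group has 1 library. Genes under 50 UMIs, and classes of under 20 cells in a library, are limited by depth.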
